A study of Homo sapiens and Mus musculus with 9 samples.

Results

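Peaks from a study of RNA crosslinking to the pregnane X receptor (PXR) were examined in 10 genes grouped under the label luminal epithelial genes. They were GATA3, MLPH, ESR1, XBP1, IGFBP5, GREB1, CA12, BCAS3, VMP1 and CRABP2. Luminal epithelium is the hormone-responsive secretory cell layer of glands such as the breast, and the label was not tested for each of these genes. They were chosen out of 20037 nuclear protein-coding genes and were selected on measured values, the presence of RNA crosslinking peaks in their hg38 spans mainly in the list named for HepG2, a human hepatocellular carcinoma line. A peak was counted for a gene when its summit lay in the gene's span. All 10 genes held at least 1 peak of the HepG2 list, which 5.45% of all protein-coding genes did, with 23 peaks of 1557 in all. The WT-named LS174T list had 1 of its 2103 peaks in 1 of the genes (7.23% of all protein-coding genes had one), and the KO-named LS174T list 0 of 46 (0.11%). Because presence in these lists chose the genes, the counts and levels below are a description and carry no test.

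The study set out to map RNA bound by PXR, a nuclear receptor for drugs and bile acids. It used enhanced UV crosslinking and immunoprecipitation, in which UV light fixes protein to RNA. The RNA is cut with RNase I, and the immunoprecipitated fragments are sequenced. The groups used here were HepG2 cells precipitated with an antibody to the HA tag (2 IP libraries, beside 1 input) and LS174T cells, a human colorectal adenocarcinoma line. The LS174T record comprises a PXR knockout IP and a wild-type IP, both with an antibody to PXR, and a wild-type input. The labels name no drug treatment, no construct carrying the HA tag and no clone number. The record ties 1 LS174T list to the wild-type input and the other to the wild-type IP, whereas the names of the lists read wild-type IP and knockout IP, so each is called here by its name, WT-named or KO-named, and no genotype or input contrast is drawn from them. Each list is 1 value for its group, so no spread between replicates exists.

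In luminal cells the estrogen receptor (ESR1), the zinc-finger factor GATA3 and the forkhead factor FOXA1 act together on chromatin to keep secretory and hormone-responsive genes on, among them GREB1, CA12 and XBP1. This joint program is best known from mammary epithelium and from estrogen receptor-positive breast tumours. As a whole it is not part of the usual description of hepatocytes, which does not mean that its single genes are silent there. Crosslinking sequencing reports RNA and not transcription factor binding to DNA: a peak in ESR1 means that fragments of ESR1 RNA were recovered. Values of the HepG2 input were not analysed here, so preferential binding of an RNA and its abundance cannot be told apart.

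Values are reads at the summit of a peak, worked out from the deposited fold enrichment and p-value, and reads in the 10000 bp window around it on the same strand. Reads may include PCR copies, and 95% Poisson intervals cover counting error only. The fold is the authors' own value, a ratio over the background estimated by the caller. The lowest number of reads at a called peak was 3 in HepG2, 3 in the WT-named list and 4 in the KO-named list, with medians of 9, 11 and 19. In all, 1092 protein-coding genes held a HepG2 peak, 1448 a WT-named peak and 22 a KO-named peak.

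The transcription factors carried 6 of the 23 peaks. GATA3, which specifies luminal cells, lies on chromosome 10 from 8045333 to 8075198. It held HepG2 peaks of 40 reads (interval 28.6 to 54.5), 47 reads (interval 34.5 to 62.5) and 20 reads (interval 12.2 to 30.9), and no LS174T peak. The 40-read and the 47-read peak stood 34.9% and 44.0% along the gene from its 5′ end, and the 20-read peak 1272 bp before its 3′ end. Their windows held 405, 464 and 155 reads, so most reads of the locus lay outside the summits.

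ESR1, the estrogen receptor gene, spans 472948 bp of chromosome 6. It held 1 HepG2 peak, at 151808133 to 151808332, with 9 reads (interval 4.12 to 17.1), a fold of 5.15 and −log10 q of 2.96. This was the weakest of the 23 peaks by reads and, among the 10 genes, the lowest by the highest −log10 q of each gene. It stood 569 bp downstream of an annotated start inside the gene. No LS174T list had a peak in ESR1.

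XBP1 encodes the factor that drives secretory capacity after its mRNA is spliced in the cytoplasm by the stress sensor IRE1, the product of ERN1. It lies on the minus strand of chromosome 22 from 28794560 to 28800569. Its 5′ peak held 38 reads (interval 26.9 to 52.2) at a fold of 13.9, the highest fold among the members, and its 3′ peak held 14 reads (interval 7.65 to 23.5) at a fold of 5.95. The 5′ peak, 28800197 to 28800518, reached into the bases before an internal annotated start of XBP1. These bases leave out the summit of the peak, at 28800368. They are shown because they hold a stretch of a member peak for which sequence was at hand. They come from RefSeq (GRCh38.p14, chr22:28800078-28800327, minus strand), and the 131 bases inside the peak are in capitals, 75.6% of them G or C.
XBP1 5′ peak: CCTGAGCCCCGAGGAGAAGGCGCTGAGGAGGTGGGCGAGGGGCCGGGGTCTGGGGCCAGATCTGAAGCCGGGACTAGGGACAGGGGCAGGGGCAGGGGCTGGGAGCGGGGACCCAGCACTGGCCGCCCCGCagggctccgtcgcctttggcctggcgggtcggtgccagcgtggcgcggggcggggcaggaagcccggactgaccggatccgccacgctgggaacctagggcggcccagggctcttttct

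The hormone-regulated and secreted-protein genes GREB1, IGFBP5 and CA12 carried 5 peaks. GREB1, a gene induced by estrogen whose product binds the receptor, had HepG2 peaks of 16 reads (11595450 to 11595649) and 22 reads (11618652 to 11618988) on the plus strand of chromosome 2. They lay 23360 bp apart, each well inside the 159901 bp span, and neither LS174T list had a peak there. IGFBP5, which encodes a secreted binding protein of insulin-like growth factors, had HepG2 peaks of 37 reads (interval 26.1 to 51, fold 11.9) and 18 reads (interval 10.7 to 28.4, fold 6.09), whose summits lay 333 bp apart near its 5′ end. Both summits also lay in the span of IGFBP-AS1, a lncRNA gene. Both peaks were on the minus strand, which is the strand of IGFBP5.

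The 37-read IGFBP5 peak, 216694353 to 216694764, reached the bases before the start of IGFBP-AS1. These bases leave out its summit, at 216694572. They are printed on the strand of IGFBP5 (RefSeq, GRCh38.p14, chr2:216694196-216694445, minus strand), with the 93 bases inside the peak in capitals, 69.9% of them G or C, for reading beside the XBP1 stretch.
IGFBP5 5′ peak: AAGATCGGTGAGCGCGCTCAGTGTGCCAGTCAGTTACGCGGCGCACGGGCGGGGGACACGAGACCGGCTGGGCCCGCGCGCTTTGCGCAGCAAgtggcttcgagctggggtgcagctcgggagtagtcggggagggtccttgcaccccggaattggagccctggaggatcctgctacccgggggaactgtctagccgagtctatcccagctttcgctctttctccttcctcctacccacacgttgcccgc

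CA12, a membrane carbonic anhydrase, was the only one of the 10 genes with a peak in an LS174T list. Its HepG2 peak held 11 reads (interval 5.49 to 19.7, fold 8) and stood 226 bp downstream of the annotated start. Its WT-named peak held 9 reads (interval 4.12 to 17.1, fold 5.15) and stood 92.2% along the gene, 4739 bp before the 3′ end. The 2 peaks therefore mark opposite ends of the gene, and their read intervals overlap. The WT-named summit also lay in the span of a lncRNA gene, LOC124903506.

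MLPH encodes melanophilin, which links RAB27A on vesicles to a myosin motor, and CRABP2 a carrier of retinoic acid to its nuclear receptor. MLPH carried 4 HepG2 peaks on chromosome 2, with 26, 34, 22 and 16 reads in order from the 5′ end, at 1.54%, 42.8%, 57.1% and 98.0% of its span. Its peaks thus ran from 222 bp after an annotated start to 1408 bp before the 3′ end. CRABP2 carried 1 HepG2 peak of 12 reads (interval 6.2 to 21), with its summit 121 bp before the 3′ end of the gene. That summit held 50% of the reads of its window, the highest share among the members. Neither gene had an LS174T peak.

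VMP1 and BCAS3 lie on the plus strand of chromosome 17. VMP1 encodes a membrane protein of the endoplasmic reticulum needed for autophagy, and BCAS3 was named for its amplification in breast carcinoma. VMP1 held 53, 38, 33, 32 and 34 reads at its 5 HepG2 peaks, in order along the gene. The summits covered 2754 bp, all within 4205 bp of the 3′ end, and each window held between 405 and 441 reads, so these windows largely share reads. BCAS3 held HepG2 peaks of 23 and 18 reads, the last of them 269 bp before its 3′ end. Neither gene had an LS174T peak.

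The last VMP1 peak ended 428 bp before the hairpin of MIR21, the precursor of a widely expressed microRNA, which lies in the same span from 59841266 to 59841337. No peak of the 3 human lists lay on the hairpin. The peaks upstream of it were given to VMP1 by its span alone, and which transcript their reads came from was not tested. Its mature form is shown because the VMP1 peaks stop just upstream of it. The sequence is that of RefSeq (GRCh38.p14, chr17:59841273-59841294, plus strand), with the seed, bases 2 to 8, in capitals.
hsa-miR-21-5p: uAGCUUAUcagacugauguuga

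**Figure D1:**
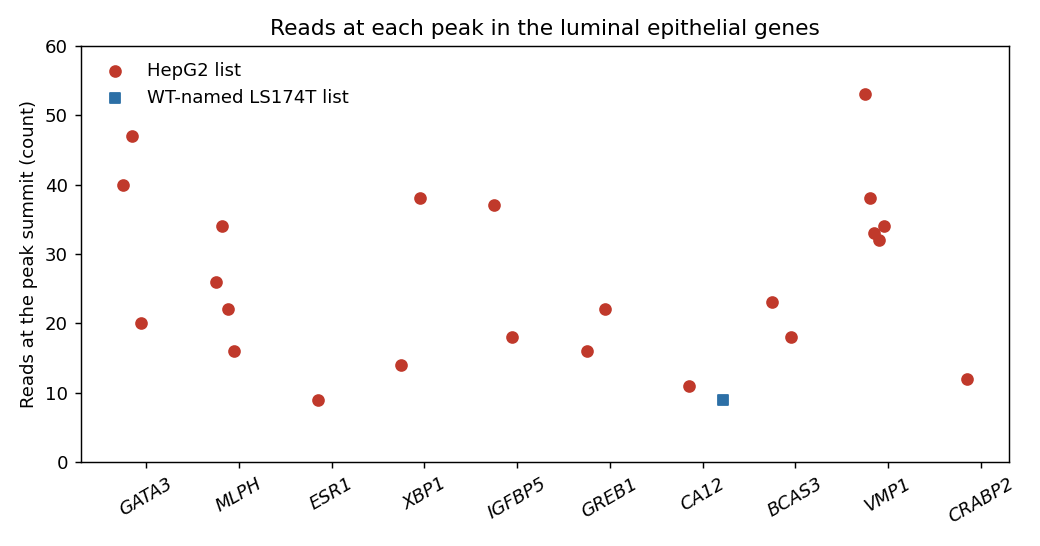
Reads at the summit of each peak (linear axis, count) for the 10 genes, HepG2 list in red circles and WT-named LS174T list in blue squares. The 23 HepG2 peaks run from 9 reads in ESR1 to 53 in VMP1, and the lone WT-named peak is the 9-read peak of CA12.

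Summed over their peaks, the members ranged in HepG2 from 190 reads for VMP1, 107 for GATA3 and 98 for MLPH to 12 for CRABP2, 11 for CA12 and 9 for ESR1. In between stood IGFBP5 with 55, XBP1 with 52, BCAS3 with 41 and GREB1 with 38. The 95% intervals were 164 to 219 for VMP1, 87.7 to 129 for GATA3 and 79.6 to 119 for MLPH. The VMP1 interval lay above the others, and those of GATA3 and MLPH overlapped. These intervals cover counting error only and are no test of a difference. The sums also grow with the number of peaks, 5 in VMP1, 3 in GATA3 and 4 in MLPH. The intervals of the 4 genes in the middle also overlapped, with 41.4 to 71.6 for IGFBP5 and 26.9 to 52.2 for GREB1, as did those of the lowest 3. The sums are not corrected for gene length, which ran from 6010 bp to 714981 bp, and they do not rank the RNA levels of the genes.

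The members stood out by the number of their peaks. At least 2 HepG2 peaks lay in 7 of the 10 genes, whereas 98 of all protein-coding genes (0.489%) had as many. VMP1, with 5, was the protein-coding gene with most HepG2 peaks, and MLPH was 1 of 2 such genes with 4. A HepG2 peak with no LS174T peak was found in 586 protein-coding genes (2.92%), and at least 2 such peaks in 31 (0.155%). Of those 31, 7 were members, and the 3 with 3 or more peaks were VMP1, MLPH and GATA3. Since the rule sought such genes, nothing further is read from these shares. A HepG2 peak was found in 9.22% of protein-coding genes over 200000 bp and in 4.32% of those up to 10000 bp. The members comprised 2 genes of the longest class and 2 of the shortest.

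The other genes most like the members were taken by the same measure, HepG2 peaks without any LS174T peak over the 3 lists. There were 24 with 2 peaks each. The deepest were CDC42SE1 with 76 reads at its highest peak, GFRA1, a receptor subunit for GDNF-family ligands, with 30, the polarity gene PARD6B with 30, the lipid transfer gene STARD10 with 24, RABL6 with 22, the G protein subunit gene GNB2 with 21, DPAGT1, an enzyme of N-glycosylation, with 19 and the histone gene H2AX with 19. DPAGT1 and H2AX are not separate cases, since both had 33 reads in all on chromosome 11. With each peak given to 1 gene, H2AX kept peaks of 14 and 19 reads and DPAGT1 none. Peaks in overlapping spans thus count for each gene among the 24.

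None of the 23 HepG2 peaks of the members overlapped a WT-named peak on either strand (0 of 23, exact binomial interval up to 14.8%). For HepG2 peaks in other protein-coding genes with reads in the members' range, 9 to 53, 338 of 680 (49.7%, interval 45.9 to 53.5%) overlapped a WT-named peak. Among those with 20 to 49 reads it was 102 of 154 (66.2%), against 0 of 14 member peaks of that depth. The rule used this contrast, so the difference is not evidence of its own. The overlap was 26.6% for other peaks of 3 to 9 reads, a class that held 1 of the 23 member peaks.

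The strand and the place of a peak in its gene played no part in the choice. Of the 23 HepG2 peaks, 21 lay in the 9 genes whose strand the tables give, and all 21 were on the strand of the gene (interval 83.9 to 100%). In other protein-coding genes 800 of 941 HepG2 peaks were (85.0%, interval 82.6 to 87.2%), and 514 of 554 (92.8%) with reads in the members' range. The intervals of the members and of the depth-matched peaks overlap, so the members' peaks are not distinguished by strand at this number. Peaks of a gene are not independent, and no p-value is given.

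By place, 10 of the 21 stranded member peaks (47.6%, interval 25.7 to 70.2%) lay in the last 10% of the gene span. In other protein-coding genes 115 of 800 sense HepG2 peaks did (14.4%, interval 12 to 17%), and in genes with at least 2 HepG2 peaks at the members' depth 34 of 122 (27.9%, interval 20.1 to 36.7%). VMP1 alone gave 5 of the 10, and without it the count was 5 of 16 (31.2%). The 10 peaks lay in GATA3, MLPH, BCAS3, VMP1 and CRABP2. Within 1000 bp downstream of an annotated start lay 6 of 21 member peaks (28.6%, interval 11.3 to 52.2%), those of MLPH, ESR1, XBP1, IGFBP5 and CA12, against 496 of 800 in other genes (62.0%, interval 58.5 to 65.4%). In genes with at least 2 HepG2 peaks at the members' depth it was 51 of 122 (41.8%, interval 32.9 to 51.1%), which lies inside the members' interval.

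**Figure D2:**
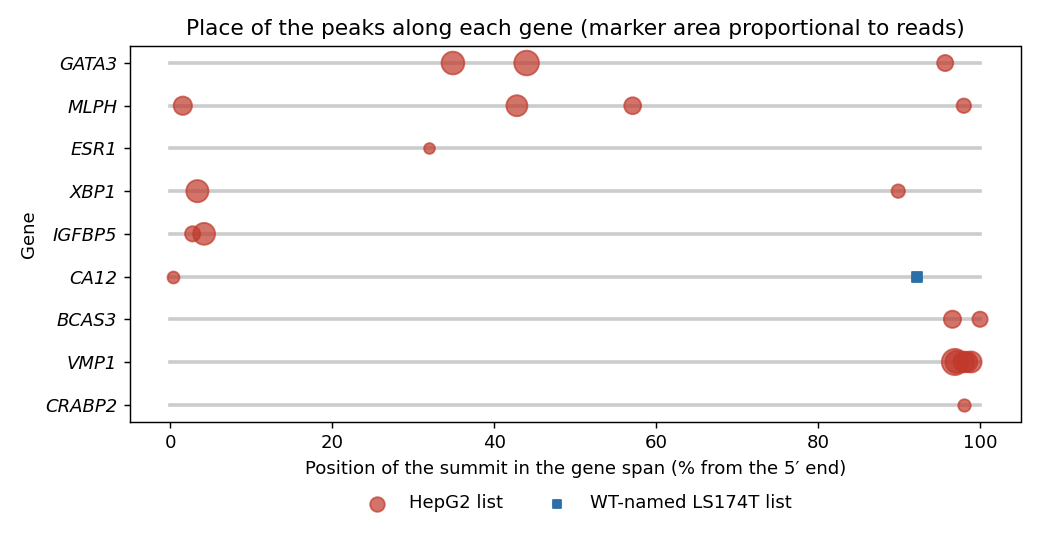
Position of each summit in its gene, in % of the span from the 5′ end, for the 9 genes with a known strand, with marker area proportional to the reads at the summit. HepG2 peaks are red circles and the WT-named LS174T peak of CA12 is a blue square at 92.2%, and the 5 VMP1 peaks gather at the 3′ end.

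The members' peaks stood in loci with many reads over the whole window. A HepG2 member peak had a median of 23 reads at the summit and 144 in its window, against 10 and 20 for HepG2 peaks in other protein-coding genes. The summit therefore held a median of 15.3% of the window, against 54.0% in other genes and 41.0% in those with reads in the members' range. The fold was correspondingly lower, with a median of 5.74 against 7.02. Peaks with reads in the members' range in genes with at least 2 HepG2 peaks had medians of 17 reads at the summit and 61 in the window. The members' windows were not all above that value, with 47 reads for ESR1, 25 for CA12 and 24 for CRABP2, and the shared VMP1 window enters the members' median with each of its 5 peaks.

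Ranked by the reads of the window outside the summit, taking the highest value of each gene, GATA3 ranked 3 with 417 reads, VMP1 ranked 4 with 407 and MLPH ranked 8 with 321 among 1092 protein-coding genes with a HepG2 peak. Above GATA3 and VMP1 stood ACTB (480) and SRRM2 (419), the cytoskeletal actin gene and a splicing factor gene of the spliceosome. GREB1 ranked 23 with 159 reads and BCAS3 ranked 30 with 141. IGFBP5 (88), XBP1 (62) and ESR1 (38) followed, and CA12 (14) ranked 382 and CRABP2 (12) ranked 422. The median was 114 for the 10 members and 8 for the other 1082 genes, which were not matched to the members by depth or number of peaks. Of genes without a WT-named peak, 3 stood within rank 10, all 3 of them members. Within rank 50 there were 17 such genes, of which 5 were members. The others included HSPB1 (285), RHOT2 (202) and STARD10 (151), so many reads around the summit were not particular to the members.

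**Figure D3:**
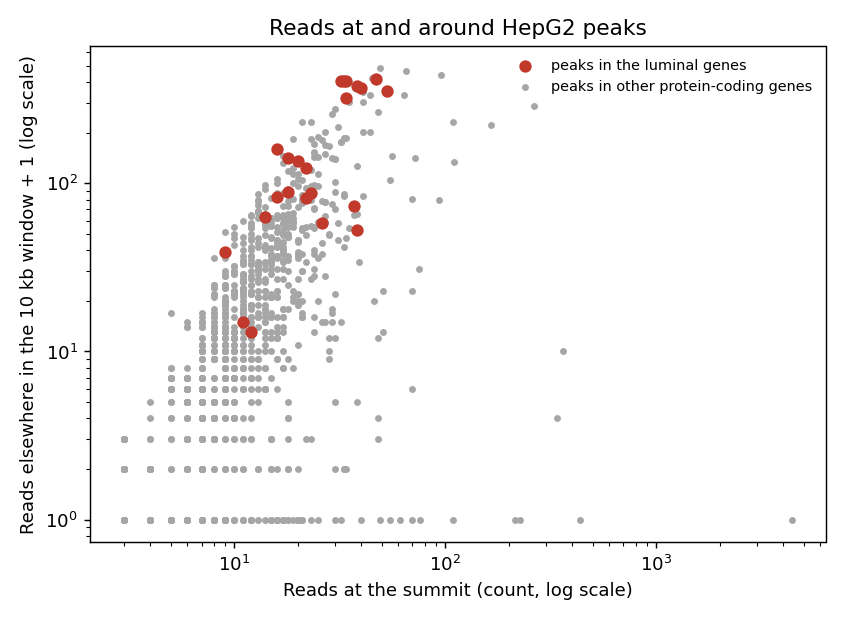
Reads at the summit (x axis, count, log scale) against reads elsewhere in the 10000 bp window plus 1 (y axis, log scale) for HepG2 peaks in protein-coding genes, members in red and other genes in grey. The VMP1 peaks and some peaks of GATA3 and MLPH lie along the upper edge of the cloud, with up to 417 reads outside the summit. Other member peaks, such as those of CA12 and CRABP2, lie within the cloud.

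The position of the members on the chromosomes was also outside the rule. They lie on 7 chromosomes, and VMP1 and BCAS3 share an interval of chromosome 17 from 59707654 to 61392831. It held 8 HepG2 peaks, 7 of them in these 2 genes, and 0 peaks of either LS174T list. Of the 9 other protein-coding genes in it, APPBP2 had a HepG2 peak with 23 reads, and the others had none. That is 11.1% of genes with a HepG2 peak against 5.45% over all genes, a difference of a lone gene. In steps of 5 Mb along the genome, the stretch from 55000001 to 60000000 of chromosome 17 held 12 HepG2 and 4 WT-named peaks. It ranked 3 of all stretches by the difference. That difference includes the 5 VMP1 peaks, which the rule chose on this contrast, so nothing is read from the rank. Outside VMP1, 7 HepG2 peaks remained there. The next stretch, 60000001 to 65000000, holds the BCAS3 and APPBP2 peaks. It had 6 HepG2 against 5 WT-named peaks, rank 77. The stretch of chromosome 2 with MLPH (235000001 to 240000000) held 6 HepG2 peaks against 1, of which MLPH gave 4.

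Related genes were looked at in 10 lists, beside the 5.45% of all protein-coding genes with a HepG2 peak and the 7.23% with a WT-named peak. Of 33 other luminal identity genes 9 had a HepG2 peak (27.3%) and 10 a WT-named peak (30.3%), 7 of them in both lists. The KO-named list had a peak in 2 of the 33, KRT8 with 18 reads and KRT19 with 14, where 0.11% of all protein-coding genes had one. The keratin genes KRT8 (164 HepG2 and 205 WT-named reads), KRT18 (110 and 125) and KRT19 (72 and 146) and the tight junction gene CLDN3 (55 and 15) led by HepG2 reads. GRHL2, an epithelial transcription factor gene, and TBC1D9 had a HepG2 peak alone, with 18 and 7 reads, and TFF3, AGR2 and ERBB3 a WT-named peak alone. FOXA1 had none. Of 25 estrogen-responsive genes 8 had a HepG2 peak (32%) and 10 a WT-named peak (40%), 6 in both. They were led by the protease gene CTSD (44 and 32 reads), the trefoil gene TFF1 (38 and 51), the cyclin gene CCND1 (35 and 31) and MYC (27 and 19). SIAH2 with 9 and SLC7A2 with 6 reads were found in HepG2 alone, and the progesterone receptor gene PGR in neither list. Both wider lists thus stood above the shares over all genes in HepG2 and in LS174T alike. The WT-named list had slightly more of their genes, but its share over all genes was also higher (7.23% against 5.45%). No share was tested.

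Partners of single members were read against the same shares over all protein-coding genes, 5.45% for HepG2 peaks and 7.23% for WT-named peaks. Of 16 genes of the unfolded protein response, in which XBP1 acts, 5 had a HepG2 peak (31.2%) and 6 a WT-named peak (37.5%), with CALR at 20 and 39 reads, HERPUD1 at 20 and 9, HSPA5 at 15 and 46 and HSP90B1 at 10 and 23. ERN1 had none. In the insulin-like growth factor axis of IGFBP5, 3 of 15 had a HepG2 peak (20%) and 4 a WT-named peak (26.7%). IGFBP2 held 16 and 9 reads, IGFBP4 15 in both, and IGF1R 16 in HepG2 alone. Of 12 RAB27A complex and carbonic anhydrase genes, SYTL2 had a HepG2 peak (16 reads), whereas CA9, RAB27B and MYO5B had WT-named peaks. Autophagy genes had a HepG2 peak in 0 of 15 and a WT-named peak in 4, the cargo receptor gene SQSTM1 with 38 reads among them. None of 17 genes of retinoic acid handling had a peak in either list.

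The cell type named by each list was set against defining markers. Of 25 hepatocyte and hepatoma markers, GPC3 alone had a HepG2 peak (4%), with 8 reads. A WT-named peak was found in 2 of the 25 (8%), GPC3 with 17 reads and HNF4A with 7. ALB, AFP, APOA1, APOB, TTR, SERPINA1 and the fibrinogen genes, which define hepatocytes and HepG2 cells, had no peak in the HepG2 list. Of 18 colon epithelium markers, 1 had a HepG2 peak (5.56%), CDH17 with 15 reads, and 9 a WT-named peak (50%), led by PIGR (65 reads), LGALS4 (50), PHGR1 (40) and MUC2 (24). None of 16 basal epithelial and mesenchymal markers had a peak in either list. The shares over all protein-coding genes were 5.45% and 7.23%. These lists show called peaks and not RNA levels, and which cells gave the libraries of the HepG2 list was not tested.

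**Figure D4:**
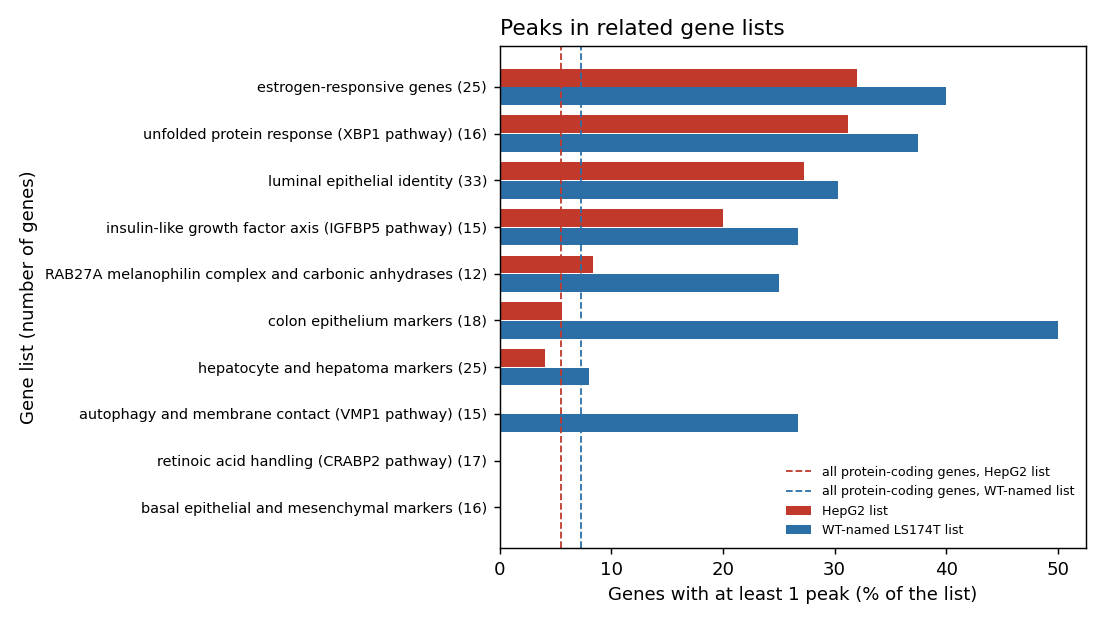
Share of each related gene list with at least 1 peak (%), HepG2 list in red above the WT-named LS174T list in blue, with dashed lines at the shares over all protein-coding genes, 5.45% and 7.23%. The hepatocyte list stands at 4% in HepG2 and the colon list at 50% in the WT-named list.

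The bases before the starts of the 9 members with an entry in the promoter table were searched on both strands for the nuclear receptor half-sites AGGTCA and AGTTCA and the GATA-type motif AGATAA, over 250 bases before each start. AGGTCA was found for BCAS3 and AGTTCA for ESR1, and AGATAA for none, where 13.6%, 9.53% and 9.27% of 15843 protein-coding genes had them. The XBP1 and IGFBP5 stretches printed above held none of the 3 motifs.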

How the data were processed

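The authors deposited peak lists, and no reads were used here. The tools named are cutadapt, BWA and MACS2, with builds hg38 and mm10, per the submitters' processing notes. Versions and settings are not given in the sources used here, nor is whether the HepG2 IP libraries were pooled. The deposited lists give for each peak a score, a fold enrichment (a ratio), −log10 p-value, −log10 q-value and summit. Peaks had been called per strand, per the deposited peak names. The mouse liver list was not used.

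Reads n at a summit were solved from the deposited fold, (n + 1) / (λ + 1), and p, the upper Poisson tail above n, with the background λ a multiple of 0.02 (200 bp extension over a 10000 bp window). The solution was unique for 1556 of 1557 HepG2 and 2102 of 2103 WT-named peaks. On simulated peaks 1537 of 1537 were recovered for HepG2. The simulation used the same formula and step, so it checks the solving and not the settings of the caller.

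Genes, spans and starts came from RefSeq (GRCh38.p14). A gene was called when a summit lay in its span, strand ignored; for positions a peak went to the shortest gene holding it. Overlap meant at least 1 bp on the same strand. Intervals are exact binomial or Poisson. The members and lists were chosen with earlier results of these data known. Named genes were all members, up to 4 per list by reads, up to 6 of the chromosome 17 interval and up to 8 most like the members; other named list genes were picked after their values were seen. No test was run, since each group is 1 list. Python 3.11.15, scipy 1.17.1 and pandas 2.3.3 were used.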

Additional observations from a re-analysis of the deposited data

How the results depend on the processing

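Each of 7 counts was taken again under the alternatives, 34 values in all, and 31 stayed within 1.5 times the reported count. The number of members with a WT-named peak was 0 for peaks with −log10 q of at least 5 and 0 for peaks of at least 10 reads, since the CA12 peak has −log10 q of 3.1 and 9 reads. Peaks in the last 10% of the span numbered 5 without VMP1, an alternative chosen after seeing the data. Members with a HepG2 peak numbered 9 for peaks with −log10 q of at least 5 (ESR1 lost), where 3.74% of all protein-coding genes kept one, and 9 for at least 10 reads, where 2.75% did. Requiring the strand of the gene also left 9, because the tables give no strand for GREB1. Of the 1557 HepG2 peaks, 783 rest on fewer than 10 reads, so genes without a peak are not shown to lack reads. No replicate could be left out. No paired analysis was possible because the lists carry no values for single libraries.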
